A study of Mus musculus with 6 samples.

Results

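The genes described here encode the proteins of the cytosolic ribosome. Their probe sets were taken by name, as those with a single annotated symbol that reads Rpl or Rps, a number and at most one of the letters a, x or l, together with Rplp0, Rplp1, Rplp2 and Rpsa. This gave 100 of the 45037 probe sets tested, and they stood for 46 of 18193 genes. Of these, 22 genes encode proteins of the large subunit, 20 encode proteins of the small subunit, and 4 are paralogs (Rpl3l, Rpl39l, Rps27l and Rps4l). A further 24 large subunit genes, 10 small subunit genes and the paralog Rpl10l had no probe set with their symbol alone, and 27 of these 35 genes were reached only by probe sets that name several genes. The arrays compared 2 groups of 3 samples of mouse cells. AC were primary mature adipocytes from mouse fat tissue, with no treatment named. DFAT cells were a preadipocyte line, set up by ceiling culture, in which floating adipocytes attach, lose their lipid and divide. The mice that gave the DFAT line carried a GFP transgene, and the cells were harvested at semiconfluence. Strain, age and sex were given for neither group, nor was the genotype of the AC mice, so differences of mouse, of culture and of dedifferentiation cannot be told apart. The 3 DFAT samples came from 1 line, and no source says that the samples of a group were separate preparations, so a p-value here weighs a difference against the spread of these arrays alone, which may be technical.

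A ribosome joins a small subunit, which reads the mRNA, to a large subunit, which forms the peptide bond. Most ribosomal proteins are present as a single copy in each ribosome, and cells that grow and divide make many ribosomes. Most ribosomal protein mRNAs start with a C followed by an unbroken run of pyrimidines, the terminal oligopyrimidine (TOP) tract, through which the kinase complex mTORC1 and the protein LARP1 set how well they are translated. Arrays measure the mRNA and not its translation.

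Start regions were read from RefSeq (GRCm38.p6), which held 48 windows for 40 of the 46 genes, each with 250 bases before and 50 bases after an annotated start. Those below run from 30 bases before the start to 20 bases after it, 5′ to 3′ on the strand of the gene, and capitals mark the longest pyrimidine tract that begins with C within 10 bases of the start. In Rpl39l it ends just before the annotated start, so it lies outside the annotated mRNA. They are shown because genes that differed between the groups (Rpl14, Rpl35, Rps18 and the paralog Rpl39l) and genes that did not pass the test (Rplp2, Rps27 and Rps6) both have such a tract in this window.
Rpl14, chr9:120571487-120571536, plus strand: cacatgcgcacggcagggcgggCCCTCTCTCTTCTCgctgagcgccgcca
Rpl35, chr2:39005112-39005161, minus strand: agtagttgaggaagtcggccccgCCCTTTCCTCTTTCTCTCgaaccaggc
Rps18, chr17:33955646-33955695, minus strand: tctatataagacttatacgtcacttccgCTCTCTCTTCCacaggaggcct
Rpl39l, chr16:10170198-10170247, plus strand: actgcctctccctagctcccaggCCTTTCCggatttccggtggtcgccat
Rplp2, chr7:141447621-141447670, plus strand: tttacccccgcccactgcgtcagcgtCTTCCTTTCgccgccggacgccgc
Rps27, chr3:90213629-90213678, minus strand: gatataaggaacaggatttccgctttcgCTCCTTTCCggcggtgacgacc
Rps6, chr4:86857348-86857397, minus strand: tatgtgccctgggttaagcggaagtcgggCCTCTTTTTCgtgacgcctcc

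A tract of at least 5 pyrimidines that begins with C within 10 bases of the annotated start was found in 27 of the 48 windows (56.2%), against 30.7% of all 32851 windows in the table. Tracts of at least 8 bases were in 16 windows (33.3%), against 8.11% of all windows. The ETS core CCGGAAG, read on both strands of the whole window, was in 20 windows (41.7% against 8.86%). TCTCGCG was in 10 windows (20.8% against 2.56%), and the YY1 core AAGATGG was in 7 (14.6% against 6.34%). No window of these genes held overlapping copies of different motifs. A match describes the letters and is no evidence of a bound factor. Among the 42 subunit genes, 15 of the 23 with a tract of at least 5 bases were higher in DFAT cells, and so were 10 of the 14 that had a window but no such tract. The median log2 differences of those 2 sets were 0.47 and 0.54.

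The arrays of a group resembled each other closely, with 1 exception. The correlation over all probe sets was 0.995 to 0.996 between DFAT arrays and 0.991 between AC arrays 2 and 3, but AC array 1 reached only 0.971 and 0.969 with them. AC array 1 also carried the strongest endothelial and the weakest macrophage signal of the AC arrays. All 14 adipocyte markers measured were lower in DFAT cells, where 10 of them, Adipoq among them, were at the background level, and all 12 cell cycle markers were higher, 11 of them at background in AC. The summed level of the adipocyte list (log2) was 17.1 to 17.2 in AC and 13.1 to 13.2 in DFAT cells, and that of the cell cycle list was 8.12 to 8.54 in AC and 14.4 to 14.5 in DFAT cells. Markers of other cells were lower in DFAT cells too: 14 of 14 endothelial markers (summed level 12.2 to 14.0 in AC, 8.55 to 8.64 in DFAT cells), 13 of 15 macrophage and leukocyte markers (11.4 to 13.0, 8.97 to 9.11) and 11 of 13 epithelial markers (13.6 to 14.5, 10.1 to 10.2). In DFAT cells 12, 13 and 11 of these genes were at background, with Pecam1, Ptprc and Epcam among them. Of 10 fibroblast and stromal markers, 7 were higher and 2 lower in DFAT cells (14.1 to 14.4, 15.9 to 16.0). Controls of RNA quality differed as well, though not all of them. The 3′ minus 5′ difference of the Pcx control probe sets (log2) was 4.38, 2.82 and 3.09 in AC against 1.45, 1.36 and 1.58 in DFAT cells, and that of Tfrc was 1.78, 1.59 and 1.83 against 0.86, 0.84 and 0.91. For Actb it was 0.40, 0.55 and 0.55 against 0.31, 0.29 and 0.32. For Gapdh the groups overlapped, at -0.19, -0.05 and -0.01 against 0.02, -0.03 and 0.001. For 18S rRNA it was 0.45, -1.12 and -0.89 against -0.64, -0.52 and -0.57, with AC array 1 alone above the DFAT arrays. The part of these other cells and of RNA quality in the ribosomal protein differences was not tested. In bulk RNA, fewer cells of a type and less RNA per cell cannot be told apart.

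Expression of ribosomal protein genes was higher in DFAT cells as a group, by a modest amount. Of the 46 genes, each taken at its probe set with the highest mean signal, 30 were higher in DFAT cells, 1 (the paralog Rps4l) was lower and 15 did not pass the test (limma, adjusted p under 0.05 over all probe sets). Among all genes, 22.6% were higher and 23.8% were lower. The median difference over the 46 genes was 0.49 on the log2 scale, against -0.10 over all genes. At least 4-fold differences were found for 4 genes upwards (Rps25, Rpl39l, Rpl14 and Rpl12) and 1 downwards (Rps4l), against 4.78% and 6.65% of all genes. By probe set, 71 of 100 were higher and 3 were lower, where 20.3% and 18.1% of all probe sets were. The large and the small subunit were alike in this: 15 of 22 large subunit genes were higher, with a median of 0.52, and 13 of 20 small subunit genes, with a median of 0.46, and none of either was lower. Without AC array 1, 34 of the 46 genes were higher and 1 was lower. Leaving out DFAT array 2 left 20 genes higher, and leaving out any other array but AC array 1 left between 21 and 27.

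**Figure D1:**
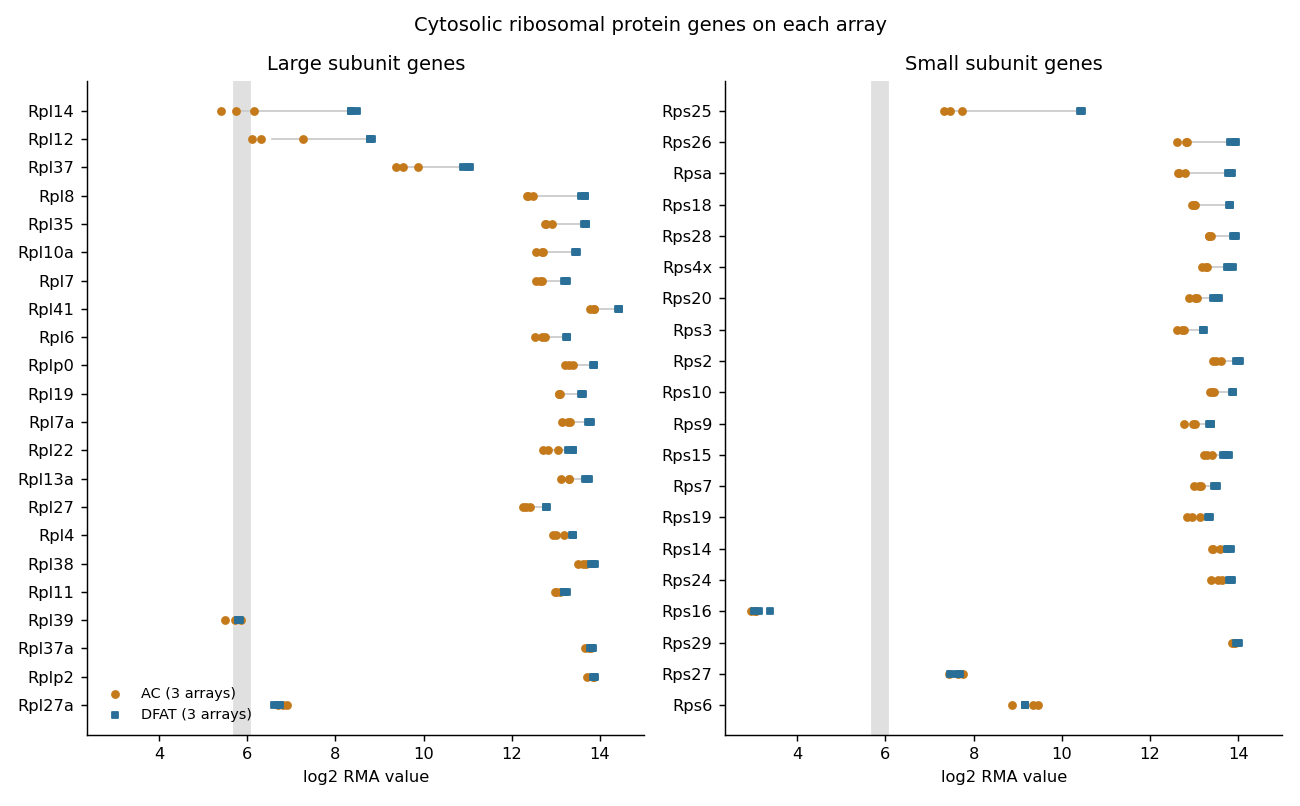
Log2 RMA values of the 22 large subunit genes and the 20 small subunit genes on the 3 AC arrays (circles) and the 3 DFAT arrays (squares), with a line between the group means and a grey band over the range of the arrays' background levels. In 35 of the 42 genes every DFAT array lies above every AC array, and Rps25, Rpl14 and Rpl12 show the widest gaps. Every DFAT array also lies above every AC array in 27.5% of all genes, and in 127 of the 166 probe sets of any gene with a mean above 13.

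The shift was seen on each array. The median signal of the 46 genes was 13.00, 12.76 and 12.90 in AC against 13.47, 13.45 and 13.47 in DFAT cells (log2). The DFAT arrays were nearly equal in this median, and all were above the highest AC array. In 37 genes every DFAT array exceeded every AC array, as did 27.5% of all genes. The AC arrays scattered more: the SD over AC arrays was the larger in 39 of the 42 subunit genes. AC array 2 was the lowest AC array in 33 of the 42 and AC array 1 the highest in 26. In 33 subunit genes with a mean signal of 12 or more, the differences were narrow, from 0.06 to 1.23 with an SD of 0.28 over genes, and 24 of the 33 were higher in DFAT cells. In the 9 with a mean under 12, the differences ran from -0.12 to 2.94, and 4 were higher.

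In the large subunit, the widest difference was that of Rpl14, a protein of the outer face of the subunit. Its values were 5.76, 5.41 and 6.15 in AC against 8.36, 8.35 and 8.49 in DFAT cells (log2). AC arrays 1 and 2 were at the background level, where the DFAT arrays were well above it, and the fitted difference was 2.63 ± 0.20 (SE, n = 3 per group; limma, adjusted p = 2.19e-05). With values under the background level set to it, the difference was 2.43. Rpl12, which anchors the stalk that recruits translation factors, read 7.26, 6.10 and 6.31 in AC against 8.83, 8.79 and 8.78 in DFAT cells. AC array 1 stood more than 1 log2 unit above AC array 2, still below all DFAT arrays, and the difference was 2.24 ± 0.28 (limma, adjusted p = 0.000414). Rpl37, a small zinc-binding protein buried in the ribosomal RNA, went from 9.87, 9.38 and 9.53 to 11.06, 10.90 and 11.00. Its groups were well apart, by 1.39 ± 0.16 (limma, adjusted p = 0.00025). Rpl14, Rpl12 and Rpl37 had 1 probe set each, with mean signals of 7.09, 7.68 and 10.29, and no brighter one to compare.

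Rpl8 lies close to the peptidyl transferase centre, where the peptide bond forms. Its values were 12.36, 12.34 and 12.47 in AC against 13.65, 13.58 and 13.65 in DFAT cells, a difference of 1.23 ± 0.12, or 2.35-fold (limma, adjusted p = 0.000111). This was the widest difference among the subunit genes with a mean signal of 12 or more. Rpl35 sits at the rim of the tunnel through which the new peptide leaves, and all 5 of its probe sets above the background level were higher in DFAT cells. On the brightest of them it read 12.78, 12.75 and 12.90 in AC against 13.63, 13.69 and 13.68 in DFAT cells. The groups did not overlap, and the difference was 0.85 ± 0.12 (limma, adjusted p = 0.000875). Of 5 members at the exit tunnel, 3 were higher, with a median difference of 0.49, where 65.2% of the 46 genes and 22.6% of all genes were.

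Of the proteins of the stalk itself, Rplp0 passed the test and Rplp2 did not, and no test compared them. Rplp1 had no probe set with its symbol alone. Rplp0, the scaffold of the stalk, was 13.39, 13.29 and 13.20 in AC against 13.87, 13.85 and 13.87 in DFAT cells. All DFAT arrays were above all AC arrays, by 0.57 ± 0.12 on average (limma, adjusted p = 0.00752). With the arrays centred on 10 reference genes, the difference was 0.20 and the call was lost (limma, adjusted p = 0.279). Of those 10 genes, 5 were themselves higher and 2 lower in DFAT cells as deposited. Rplp2, one of the acidic proteins that hang from Rplp0, was 13.70, 13.85 and 13.87 in AC against 13.84, 13.86 and 13.89 in DFAT cells. The groups overlapped, with a difference of 0.06 (95% confidence interval -0.23 to 0.35; limma, adjusted p = 0.748). Rpl11 carries the 5S ribosomal RNA into the subunit and, when free, binds the p53 regulator Mdm2. It read 13.00, 12.98 and 13.10 in AC against 13.24, 13.19 and 13.19 in DFAT cells, with no overlap but a difference of only 0.18 ± 0.12 (limma, adjusted p = 0.289).

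In the small subunit, Rps25 differed most. It lies on the head of the subunit and is needed for initiation at several internal ribosome entry sites. Its values were 7.34, 7.46 and 7.74 in AC against 10.45, 10.47 and 10.42 in DFAT cells. The DFAT arrays were nearly equal, the AC arrays less so, and all DFAT arrays were far above them. The difference was 2.94 ± 0.15, or 7.65-fold (limma, adjusted p = 2.39e-06). Rps25 had 1 probe set, with a mean signal of 8.98, and no brighter one to compare. Where 65.2% of the 46 genes and 22.6% of all genes were higher in DFAT cells, 5 of 8 head proteins measured were. Among them was Rps18, which takes part in the contacts between the subunits, at 13.00, 12.95 and 13.01 in AC against 13.79, 13.81 and 13.81 in DFAT cells. The arrays of each group were nearly equal, and the groups were 0.82 ± 0.12 apart (limma, adjusted p = 0.000915).

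Around the exit of the mRNA channel, 3 of 4 members were higher in DFAT cells, with a median difference of 0.84. Of the 46 genes 65.2% were higher, and of all genes 22.6%, so this small count is near the share of the members. Rps26, which contacts the mRNA upstream of the start codon, read 12.85, 12.62 and 12.81 in AC against 13.81, 13.95 and 13.93 in DFAT cells. The difference was 1.14 ± 0.13 (limma, adjusted p = 0.000254). Rpsa, also known as a laminin receptor, read 12.81, 12.64 and 12.66 in AC against 13.77, 13.84 and 13.86 in DFAT cells. Like Rps26, it was more than 0.9 higher on the lowest DFAT array than on the highest AC array, and its difference was 1.12 ± 0.12 (limma, adjusted p = 0.000213). Rps28, the third, was 0.56 ± 0.12 higher (limma, adjusted p = 0.00642), but its difference was 0.19 and did not pass the test with the reference genes as the standard (limma, adjusted p = 0.249). Of the 3 members at the mRNA entry, Rps2 and Rps3 were higher and Rps6 was not.

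The 14 subunit genes that did not pass the test were of several kinds. Rpl4, Rpl11, Rpl38, Rps14, Rps19, Rps24 and Rps29 had every DFAT array above every AC array, with differences from 0.09 to 0.37. Rps6, the substrate of the S6 kinases, read 8.88, 9.34 and 9.45 in AC against 9.17, 9.16 and 9.17 in DFAT cells. The DFAT arrays fell inside the range of the AC arrays, and the difference was -0.05 (95% confidence interval -0.45 to 0.34). Rpl27a, a large subunit protein, had a difference of -0.12 (-0.41 to 0.18), and Rps27, a zinc finger protein of the small subunit, one of -0.03 (-0.36 to 0.30). Rps16 was at the background level on all 6 arrays and Rpl39 on all AC arrays, so these probe sets carried little signal of their genes. Rpl37a and Rplp2 complete the set, at 0.08 and 0.06. These values are from the brightest probe sets. On dimmer ones Rps24, Rps14 and Rpl37a were higher, on 4 of 6, 1 of 2 and 1 of 3 of their probe sets, while no probe set of Rps29, Rps6 or Rpl27a was called.

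The paralogs departed from the subunit genes in both directions. Rps4l, a close relative of Rps4x, was the only member gene that was lower in DFAT cells. It read 9.68, 9.96 and 10.11 in AC against 3.92, 3.59 and 3.39 in DFAT cells. The AC arrays were far above the background level and the DFAT arrays below it, so the difference is a bound: Rps4l was at least 17.8-fold lower in DFAT cells, taking their values at the background level (fitted difference -6.29 ± 0.18; limma, adjusted p = 1.96e-07). Its core counterpart Rps4x was 0.55 ± 0.12 higher. No source says that the mice behind the groups were matched, so a difference between mice and one between cell states cannot be told apart here.

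Rpl39l, a counterpart of Rpl39 known mainly from the testis, read 7.92, 9.08 and 9.20 in AC against 11.35, 11.40 and 11.42 in DFAT cells. AC array 1 was more than 1 log2 unit under the other AC arrays, and the groups were 2.65 ± 0.31 apart (limma, adjusted p = 0.0003). The only probe set of Rpl39 with its symbol alone was near background, so the pair cannot be compared. Rps27l, a p53 target that resembles Rps27, read 11.79, 11.99 and 11.85 in AC against 12.97, 12.88 and 12.88 in DFAT cells, a difference of 1.04 ± 0.13 that its 3 probe sets shared within 0.90 to 1.04 (limma, adjusted p = 0.000359). Rpl3l, the form of Rpl3 found in heart and skeletal muscle, was at background on all 6 arrays. Outside the naming rule, Rpl7l1, a ribosome biogenesis factor, was 1.20 ± 0.12 higher (limma, adjusted p = 0.000127). Rpl22l1, a paralog of Rpl22, had a difference of 0.47 (limma, adjusted p = 0.0803), and Fau, whose product is cut into a ubiquitin-like protein and a small subunit protein, one of 0.35 (limma, adjusted p = 0.0727).

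**Figure D2:**
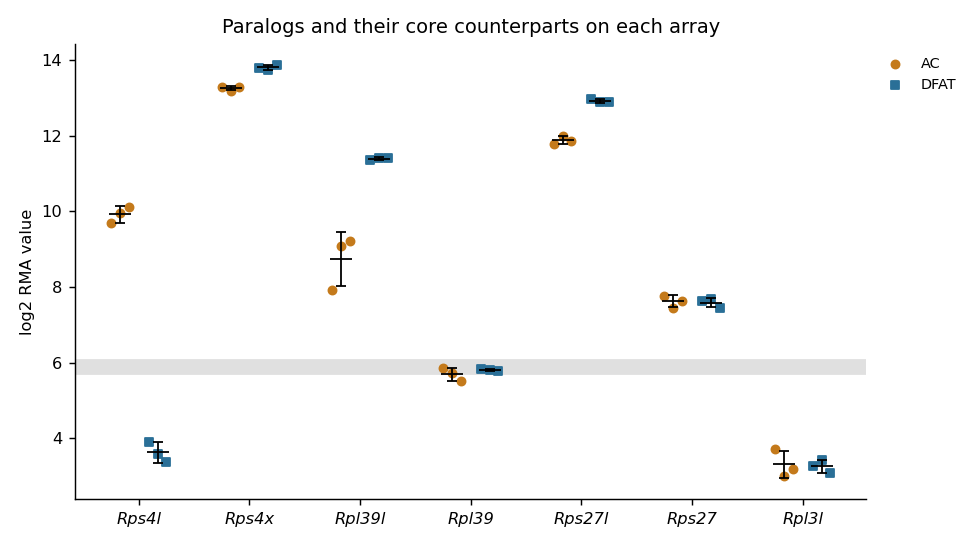
Log2 RMA values of the 4 paralogs and of the core counterparts Rps4x, Rpl39 and Rps27 on each AC array (circles) and DFAT array (squares), with mean and SD (n = 3 arrays); the grey band is the range of background levels. Rps4l falls from near 10 in AC to below the band in DFAT cells, while Rpl39l and Rps27l lie higher in DFAT cells; levels of different genes are not comparable.

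Much of the spread between genes went with the signal of the probe set. On each array, between 52 and 62 of the 100 probe sets were above the 99th percentile of all probe sets, and the highest value on any array was 14.55 to 14.61. All 9 probe sets with a mean between 10 and 12 were higher in DFAT cells, with a median difference of 1.22, and so were all 18 between 12 and 13, with a median of 0.76. Of the 43 above 13, 30 were higher, with a median of 0.51. All probe sets in the same ranges, of any gene and with the members among them, had medians of 0.23, 0.23 and 0.38. Of these, 40.0%, 41.7% and 49.4% were higher. Every DFAT array exceeded every AC array in 127 of the 166 probe sets above 13, and in 39 of the 43 members there. Below, 8 of 13 with a mean of 6 to 10 were higher (median 1.88), as were 6 of 17 under 6 (median 0.11). In these 2 ranges 37.9% and 9.26% of all probe sets were higher. The part of signal saturation in this was not tested.

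Probe sets of 1 gene also differed. Of the 23 genes with several probe sets, 13 had the same call on all, 8 had a call on some and 2 had opposite calls. Rpl13a, a large subunit protein, ranged from 0.31 to 3.29 over 4 probe sets, and Rpl41, the shortest of the proteins, from 0.59 to 2.54 over 4. Rps24 spanned -0.01 to 2.08 over 6 probe sets, and Rps9 0.45 to 1.88 over 3. These 4 genes were chosen after their values were seen. Which value a gene is given thus depends on its probe set, and the genes with a single dim one, such as Rps25, Rpl14 and Rpl12, have no bright one to set beside it. Of the 100 probe sets, 40 end in _x_at and 3 in _s_at, which marks probes that also match other transcripts, and ribosomal protein genes have many processed pseudogenes. With both kinds left out, 41 genes remained, of which 28 were higher and 1 was lower, and 27 of the 28 were among the 30 called before.

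The opposite calls were those of Rpl22 and Rps3. Rpl22, an RNA-binding protein near the tunnel exit, was higher on 2 probe sets, by 0.49 and 0.61, and lower on a dimmer one, with a difference of -0.69 ± 0.13 (limma, adjusted p = 0.00396). That one read 8.87, 8.67 and 8.61 in AC against 7.99 to 8.09 in DFAT cells, with no overlap, and its suffix marks probes shared with other transcripts. Rpl22 has the same suffix on its brightest probe set, which gave 0.49. Its call on the brightest probe set was lost with any 1 array left out other than AC array 1, and also with quantile normalization again (limma, adjusted p = 0.088), with the arrays centred on the reference genes (0.12; limma, adjusted p = 0.565) and with the replicate block (limma, adjusted p = 0.0529). Rps3, a protein of the mRNA entry that also acts in DNA repair, was 0.52 and 2.04 higher on 2 probe sets and had a difference of -0.44 on a probe set that was at background on all arrays. The first of these, its brightest, lost its call without DFAT array 2 (limma, adjusted p = 0.0544) and with the arrays centred on the reference genes (0.15; limma, adjusted p = 0.418).

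**Figure D3:**
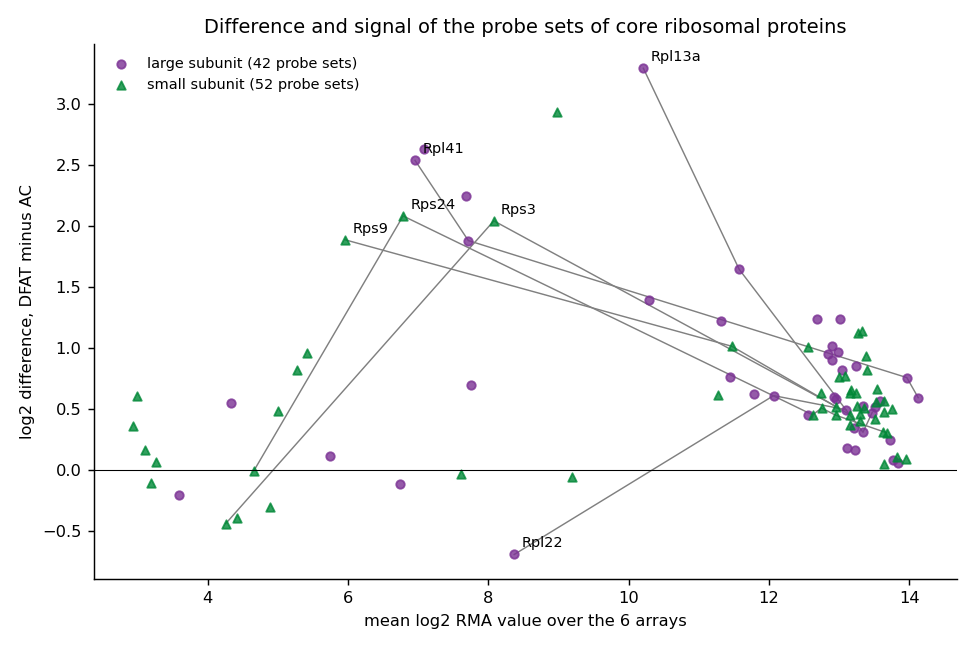
Log2 difference, DFAT minus AC, against the mean log2 RMA value over the 6 arrays for the 42 large subunit probe sets (circles) and the 52 small subunit probe sets (triangles), with lines joining the probe sets of Rpl13a, Rpl41, Rps24, Rps3, Rps9 and Rpl22. Above a mean of 13 the differences lie between 0.05 and 1.23. The joined probe sets of Rpl13a, Rpl41 and Rps9 lie highest where they are dimmest, and those of Rps24, Rps3 and Rpl22 lie lowest where they are dimmest.

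To see which genes departed from the shift they share, each array was centred on the median of the 46 genes and all probe sets were fitted again. Of the 46, 9 were then higher and 12 lower in DFAT cells relative to that median, where 12.4% of all genes were higher and 64.2% were lower. Those above it were Rps25 (2.36 ± 0.17), Rpl39l (2.08 ± 0.35), Rpl14 (2.05 ± 0.19, from AC values near background), Rpl12 (1.66 ± 0.24), Rpl37, Rpl8, Rps26, Rpsa and Rps27l, the last at 0.46 ± 0.16. Those below it included Rps4l, whose DFAT values give only a bound, Rpl27a (-0.70 ± 0.14), Rps6 (-0.63 ± 0.21) and Rpl3l (-0.63 ± 0.18). The others below it, Rps27, Rplp2, Rpl37a, Rps29, Rpl39, Rps16, Rpl11 and Rpl38, lay between -0.61 and -0.33, and Rpl39, Rps16 and Rpl3l among these genes carried little signal. Rps29, Rplp2, Rpl37a and Rpl38 had mean signals of 13.95, 13.83, 13.77 and 13.72, toward the upper end of the arrays. The part of signal saturation in their place below the median was not tested. The remaining 25 subunit genes did not pass the test. The lower set was the less stable: without AC array 2, DFAT array 1, DFAT array 2 or DFAT array 3, it held 7, 6, 6 and 7 genes, while the higher set held 8 or 9 without any 1 array.

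**Figure D4:**
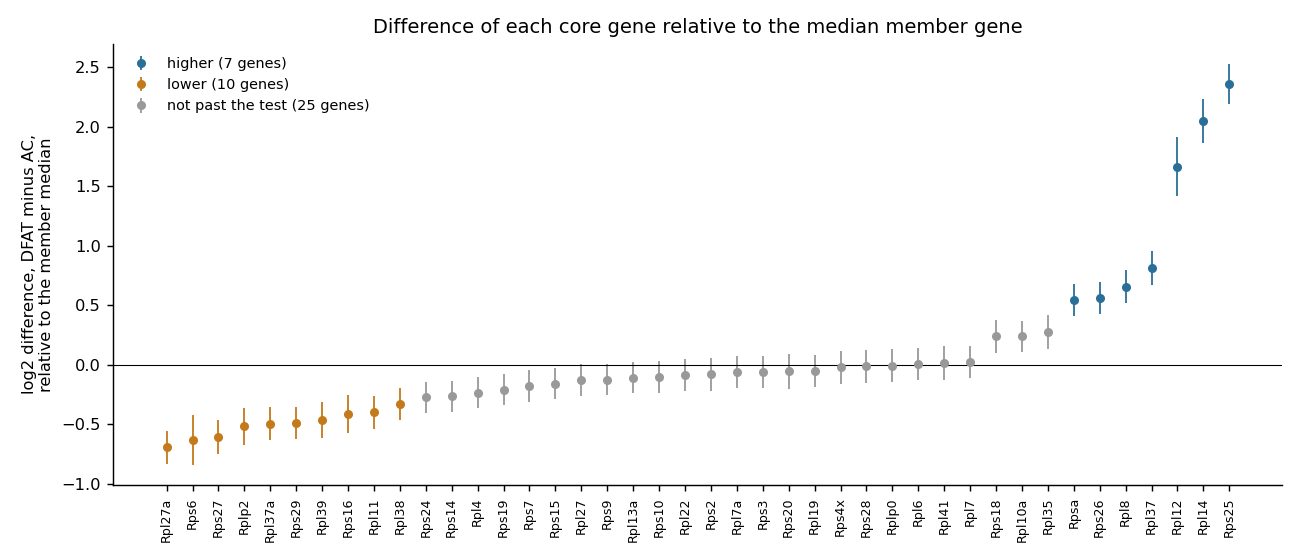
Log2 difference, DFAT minus AC, of the 42 subunit genes after each array was centred on the median of the 46 member genes, with SE (3 arrays per group); colours give the call (limma, adjusted p under 0.05). Most genes lie close to 0, and 7 genes stand above the shared shift and 10 below it.

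How large the common shift is depends on how the arrays are brought to one scale. As deposited, the median of all probe sets was -0.06 and that of the 46 genes 0.49 (log2), 0.56 apart. Centring on any other standard leaves this gap as it is and moves both ends. Quantile normalization again can change the gap and narrowed it to 0.38, with medians of 0.03 for all probe sets and 0.41 for the 46 genes. With the arrays centred on 18 hybridization control probe sets, all probe sets shifted to 0.40 and the 46 genes to 0.96, and 35 genes were higher, as were 27.6% of all probe sets. With 10 reference genes as the standard, all probe sets shifted to -0.43 and the 46 genes to 0.12, and 12 genes were higher and 3 lower, where 13.6% and 44.0% of all probe sets were. The share of calls that were higher was then 80%, against 96.8% as deposited. The 10 reference genes were not steady themselves. As deposited, 5 of them were higher and 2 lower in DFAT cells, with differences from -2.20 to 2.24, so calls gained or lost under this standard rest on genes that differ between the groups. The median of the 46 genes was above that of all probe sets under each of these, and Rps4l was the lower gene under all of them, with Rpl27a and Rps6 added under the reference genes (limma, adjusted p = 0.0262 and 0.0438). The arrays hold no measure of mRNA per cell.

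**Figure D5:**
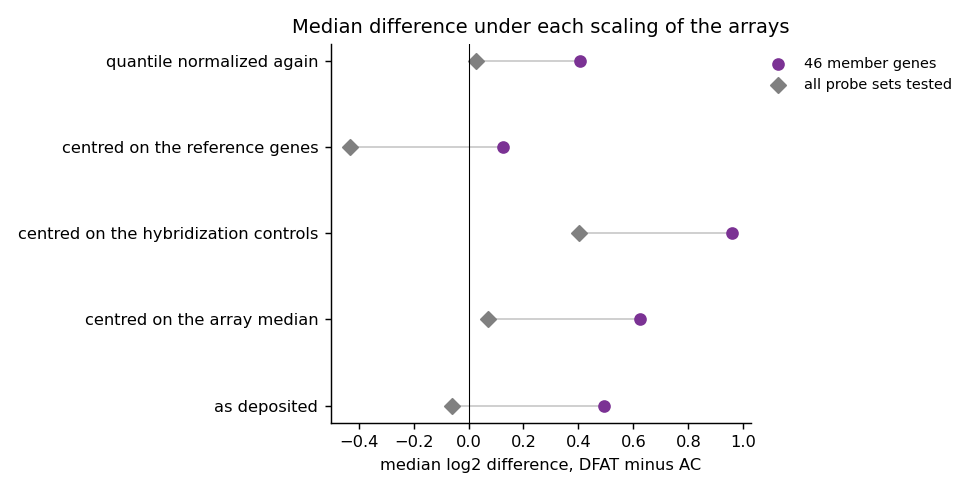
Median log2 difference, DFAT minus AC, over the 46 member genes (circles) and over all 45037 probe sets (diamonds) under 5 scalings of the arrays. With centring both medians move together, from 0.12 and -0.43 under the reference genes to 0.96 and 0.40 under the hybridization controls. With quantile normalization again they lie closer, at 0.41 and 0.03, and the members stay to the right of all probe sets under each scaling.

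Genes of ribosome assembly and other genes with TOP mRNAs were also mostly higher in DFAT cells. Of 39 nucleolar ribosome biogenesis genes, 32 were higher and 1 lower, where 22.6% and 23.8% of all genes were. Their median difference was 1.29, where that of all genes was -0.10. Nop56, of the box C/D particles that guide rRNA methylation, was 2.65 ± 0.16 higher, and Rpf2, which helps to place the 5S particle that holds Rpl11, was 2.41 ± 0.27 higher (limma, adjusted p = 7.37e-06 and 0.00022). Nop10, of the pseudouridine-forming particles, fell by 0.45 (limma, adjusted p = 0.0198). Of 16 other genes with TOP mRNAs, 13 were higher and none lower, with a median of 0.95. Nap1l1, a histone and ribosomal protein chaperone that stands in 2 of these lists, was 1.97 ± 0.16 higher, and the elongation factor subunit Eef1d was 1.38 ± 0.13 higher (limma, adjusted p = 3.56e-05 and 7.8e-05).

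Of 12 chaperones and importers of ribosomal proteins, 8 were higher and 1 lower, where 22.6% and 23.8% of all genes were. Their median was 0.87. Heatr3, which takes part in the import of Rpl5 and Rpl11, was 1.65 ± 0.24 higher, and Aamp, the relative of a yeast chaperone of Rpl10, had a difference of -1.001 ± 0.119 (limma, adjusted p = 0.000942 and 0.000302). Of 20 genes that control TOP mRNAs, 6 were higher and 3 lower, with a median of 0.07. These shares, 30% and 15%, were not far from the 22.6% and 23.8% of all genes. Larp4 (1.57 ± 0.21) and Larp4b (0.85 ± 0.15), which bind poly(A)-binding protein, were higher, while the kinase Mtor (-1.08 ± 0.12) and its inhibitor Deptor (-1.20 ± 0.13) were lower (limma, adjusted p of 0.00277 at most). Proteins of the mitochondrial ribosome, which is built apart from the cytosolic one, had a median difference of -0.14 over 76 genes. Of these, 7 were higher (9.21%) and 16 lower (21.1%), the latter near the share of all genes. Mrps2 (1.16 ± 0.14) and Mrpl3 (0.99 ± 0.21) rose most, and Mrpl27 (-1.27 ± 0.13) and Mrpl38 (-1.15 ± 0.13) fell most (limma, adjusted p of 0.00699 at most). These lists were described by counts only, and no test was made between them and the cytosolic ribosomal proteins.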

How the data were processed

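Total RNA was labelled with biotin and hybridized to Affymetrix GeneChip Mouse Genome arrays, 3 of AC and 3 of DFAT cells. The authors deposited log2 values made by RMA with the affy package in R. RMA corrects background, gives the arrays one distribution and summarizes probes, so that a shift of all mRNA is removed. Neither its version nor which arrays it took together is known from the methods or labels, which name different labelling kits.

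Groups came from the sample labels. All 45037 probe sets other than 64 controls were fitted with limma 3.58.1 (lmFit and eBayes, R 4.3.3), two-sided, with Benjamini-Hochberg adjustment over all of them and a threshold of 0.05. Each gene was taken at its probe set with the highest mean. A background level was set per array at the 95th percentile over 98 probe sets, those of 74 genes specific to sense organs, eggs or sperm, and lay at 5.69 to 6.07. Precision is limited by having 3 arrays a group. Alternatives were other scalings, filters, variance models, a replicate block, each array left out, and a fold rule. The fit was tested on simulated data.

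The members and lists were chosen with earlier results of these data known. Genes were named by rule: the stalk, the 5S particle, paralogs, in each subunit the 5 widest changes past the test in each direction, opposite probe sets, the 4 farthest from the shared shift on each side, and the 2 widest changes per direction of other lists. Other names were chosen after their values were seen. Python 3.11.15 was used for counts and motifs.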

Additional observations from a re-analysis of the deposited data

How the results depend on the processing

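No median and no called member gene named turned its direction under the alternatives run. Over the fits that left out 1 array each, 20 to 34 member genes were higher (1 lower in each), 49 to 77 probe sets were higher and 2 to 4 lower, the medians were 0.45 to 0.52 for all member genes, 0.49 to 0.56 for the large and 0.41 to 0.49 for the small subunit, and relative to the shared shift 8 to 9 genes were higher and 6 to 13 lower. Of the 30 genes higher as deposited, the 20 to 27 called without AC array 2, AC array 3 or any DFAT array were all among them.

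Scaling moved most values. Centred on the reference genes, 31 probe sets were higher and 9 lower (77.5% of calls higher, against 95.9%), 12 genes were higher and 3 lower, and the medians were 0.12, 0.15 (large) and 0.094 (small). Centred on the hybridization controls, 1 probe set was lower and the medians were 0.96, 0.98 and 0.93. Centred on the array median they were 0.63, 0.65 and 0.59. With quantile normalization again, they were 0.41 for all and 0.36 for the small subunit. With probe sets of a gene averaged they were 0.57 and 0.55, and with _x_at and _s_at left out 0.55 for the small subunit. By the rule of at least 4-fold in place of a test, 8 probe sets and 4 genes were higher and 1 probe set was lower. Leaving out the paralogs left 0 lower genes. After the data were seen, 2 alternatives were added, to set beside the 20.3% of all probe sets that were higher. Counting probe sets with several symbols too gave 144 higher of 210, and leaving out those with a mean of 12 or more gave 23 higher of 39. The cause of these moves was not tested where the setting does not itself change the number of probe sets or the standard.

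Replicate numbers did not pair the arrays (correlations of deviations -0.02, -0.03 and 0.01). With the replicate block, 23 genes were higher and 1 lower, 60 probe sets were higher and 2 lower, and relative to the shared shift 8 genes were higher and 9 lower. Among the named member genes, the block ended only the call of Rpl22 (limma, adjusted p = 0.0529).

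The comparison has 3 arrays per group, from mice not stated to be matched and 1 cell line. Array signal near its upper end and near background limits what differences can be read, and RMA leaves no measure of total mRNA per cell.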

Other observations

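Probe sets that name several genes, of which 1 symbol is that of a ribosomal protein, entered the counts above only as an added alternative. There were 110 of them, more than the 100 with a single symbol, and they reach ribosomal proteins that no single-symbol probe set covers. By the same limma fit and threshold, 73 were higher and 1 was lower on the DFAT arrays, where 20.3% and 18.1% of all probe sets were. Their median log2 difference was 0.55, against -0.06 over all probe sets. Which gene such a probe set measures cannot be told apart.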
